A study of Mus musculus with 4 samples.

Results

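The regions described here were accessible in the E9.5 list of an ATAC-seq experiment on mouse limb buds, had no counterpart in the E10.5 list, and lay near genes but away from their starts. They were chosen by 3 measured properties. A region of the E9.5 list was taken when it shared not even 1 bp with any region of the E10.5 list, when it was autosomal, and when its centre was more than 2.5 kb and less than 100 kb from the nearest transcription start of a protein-coding gene. Of 42613 regions in the E9.5 list, 8148 met the rule, and all of them were kept, without a filter on low values. They are called E9.5-only regions below, and their absence from the E10.5 list is the rule itself and not a finding.

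ATAC-seq was run on wild-type NMRI embryos, in 2 biological replicates per stage, and the authors merged the replicates of a stage into a single list. An E9.5 replicate, for which the protocol gives day 9.75, was a pair of forelimb buds of 1 embryo with the adjoining part of the trunk left on. An E10.5 replicate was a pair of forelimb buds, although its tissue label names hindlimb buds as well. In the study the lists served to restrict binding sites of SMAD4, the shared mediator of BMP and TGF-beta signals, to open chromatin. Stage and attached trunk cannot be told apart in any comparison, and in such bulk tissue fewer cells with an open region and less open chromatin per cell cannot be told apart either.

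In ATAC-seq a transposase inserts adapters where DNA is not wrapped tightly in nucleosomes, so that enhancers and promoters appear as peaks of inserted reads. Enhancers are often found in introns or in the intergenic DNA around developmental genes, and the gene they act on is not always the nearest one. Transcription factors bind short DNA words in them, such as the nuclear receptor word AGGTCA, which several receptors bind as a pair of copies, the GATA factor word AGATAA and the SOX factor word ACAAAG.

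The central 300 bases of 9 E9.5-only regions are printed as examples and are not a representative sample. The first 5 are the highest-scoring ones with few repeated words, leaving out 1 near Ankrd33, and the last 4 are the highest-scoring regions of Msi2, Auts2, Sulf2 and Col4a2, which are among the genes with the most such regions. Coordinates are mm9, the strand is the plus strand, and capitals mark these 3 words on either strand. Each printed window holds at least 1 of the 3 words. The windows of the leading genes Zmiz1, Zfhx3, Rnf220 and 2610305D13Rik held none of them and are not printed.
Lekr1 chr3:65665179-65665478: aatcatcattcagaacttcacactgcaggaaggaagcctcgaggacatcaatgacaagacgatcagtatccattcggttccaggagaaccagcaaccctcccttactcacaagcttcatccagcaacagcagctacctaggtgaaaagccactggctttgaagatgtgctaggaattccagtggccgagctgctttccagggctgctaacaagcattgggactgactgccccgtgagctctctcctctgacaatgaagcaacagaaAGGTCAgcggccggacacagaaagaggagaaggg
Frmd4a chr2:4373870-4374169: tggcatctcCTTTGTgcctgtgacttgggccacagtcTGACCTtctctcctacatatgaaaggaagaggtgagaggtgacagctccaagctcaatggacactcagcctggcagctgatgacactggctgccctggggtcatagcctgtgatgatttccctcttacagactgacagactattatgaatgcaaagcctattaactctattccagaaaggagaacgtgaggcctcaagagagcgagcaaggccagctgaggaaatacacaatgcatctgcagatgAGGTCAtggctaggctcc
Parp16 chr9:65026392-65026691: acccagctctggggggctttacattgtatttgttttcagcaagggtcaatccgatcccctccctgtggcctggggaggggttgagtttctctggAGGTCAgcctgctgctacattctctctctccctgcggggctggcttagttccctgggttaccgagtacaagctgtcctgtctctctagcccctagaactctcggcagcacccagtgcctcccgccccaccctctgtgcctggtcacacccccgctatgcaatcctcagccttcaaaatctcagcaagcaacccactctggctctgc
Tmem132e chr11:82219813-82220112: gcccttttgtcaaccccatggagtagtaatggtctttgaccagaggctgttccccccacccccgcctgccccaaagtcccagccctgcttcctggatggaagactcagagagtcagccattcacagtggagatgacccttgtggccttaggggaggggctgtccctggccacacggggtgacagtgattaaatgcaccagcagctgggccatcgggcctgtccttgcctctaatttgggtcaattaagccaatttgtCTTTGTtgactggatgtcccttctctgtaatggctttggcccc
Lfng chr5:141086334-141086633: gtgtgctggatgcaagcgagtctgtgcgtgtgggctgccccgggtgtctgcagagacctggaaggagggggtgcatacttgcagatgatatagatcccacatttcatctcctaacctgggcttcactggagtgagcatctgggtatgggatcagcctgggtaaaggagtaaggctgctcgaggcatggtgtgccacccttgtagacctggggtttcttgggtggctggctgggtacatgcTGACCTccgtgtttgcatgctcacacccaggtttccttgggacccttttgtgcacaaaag
Msi2 chr11:88564259-88564558: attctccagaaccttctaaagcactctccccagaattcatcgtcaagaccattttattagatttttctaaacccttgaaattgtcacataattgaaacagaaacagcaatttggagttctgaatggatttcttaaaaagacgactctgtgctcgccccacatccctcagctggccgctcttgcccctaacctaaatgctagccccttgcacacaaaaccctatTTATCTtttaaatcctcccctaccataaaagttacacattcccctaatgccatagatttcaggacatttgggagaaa
Auts2 chr5:132121829-132122128: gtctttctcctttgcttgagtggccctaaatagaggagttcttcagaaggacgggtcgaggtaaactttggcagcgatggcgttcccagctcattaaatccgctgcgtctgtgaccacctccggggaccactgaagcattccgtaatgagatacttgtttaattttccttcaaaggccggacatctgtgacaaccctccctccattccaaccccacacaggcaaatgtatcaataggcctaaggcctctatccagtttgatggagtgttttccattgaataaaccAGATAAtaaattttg
Sulf2 chr2:166076984-166077283: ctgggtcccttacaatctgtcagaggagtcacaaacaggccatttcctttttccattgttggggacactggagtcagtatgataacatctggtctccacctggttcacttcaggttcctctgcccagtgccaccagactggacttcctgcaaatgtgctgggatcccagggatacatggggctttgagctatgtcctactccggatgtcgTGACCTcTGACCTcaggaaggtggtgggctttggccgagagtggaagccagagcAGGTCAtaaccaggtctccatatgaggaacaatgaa
Col4a2 chr8:11362635-11362934: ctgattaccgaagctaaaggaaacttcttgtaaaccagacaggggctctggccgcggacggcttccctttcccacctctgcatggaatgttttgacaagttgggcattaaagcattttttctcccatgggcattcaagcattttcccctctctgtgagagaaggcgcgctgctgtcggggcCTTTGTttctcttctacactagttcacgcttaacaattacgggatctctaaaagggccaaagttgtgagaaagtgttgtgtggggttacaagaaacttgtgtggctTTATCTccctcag
The window near Sulf2 held 3 AGGTCA words, 2 of them in the same direction with 1 base between them. The Frmd4a window held 2 AGGTCA words, and the Lekr1, Parp16 and Lfng windows held 1 each. The Msi2, Auts2 and Col4a2 windows held 1 AGATAA word each.

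The E9.5-only regions made up 39.8% of the 20486 gene-near distal regions of the E9.5 list, and the remaining 12338 overlapped an E10.5 region and are called shared. The corresponding class of the other list, E10.5-only regions, had 9321 members, 42.8% of 21756. Both classes are used below as points of comparison. Percentages carry 95% Wilson intervals, which treat regions as independent and cover counting error only, since each stage had 1 list and no replicate error could be computed. How many of the 19 autosomes gave the same direction is stated as a description.

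Most E9.5-only regions were weak peaks. The score of a region is 10 times the negative log10 of its best MACS p-value, and it ran from 60.5 to 2596 with a median of 142 (95% interval 140 to 144). The middle of the distribution was narrow, with the first quartile at 110 and the third at 214. The shared regions had a median of 215 (211 to 219), and the E10.5-only regions had one of 146 (144 to 148), although scores of different lists also depend on sequencing depth, which is unknown. A score under 120 was held by 34.5% of the E9.5-only regions (33.5 to 35.5%), 16.5% of the shared (15.8 to 17.2%) and 33.2% of the E10.5-only regions (32.3 to 34.2%). At the other end, 314 E9.5-only regions (3.85%, 3.46 to 4.29%) scored at least 500, against 19.5% of the shared (18.8 to 20.2%). A score of at least 1000 was reached by 35. None of the 8148 reached 3100, while 44 shared regions did. A count of 0 allows a share of up to 0.0368% by the limit of 3 counts, and of up to 0.0471% by the Wilson interval. Because the rule selects on presence in one list and absence from the other, these scores are given as a description of the regions it chose.

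**Figure D1:**
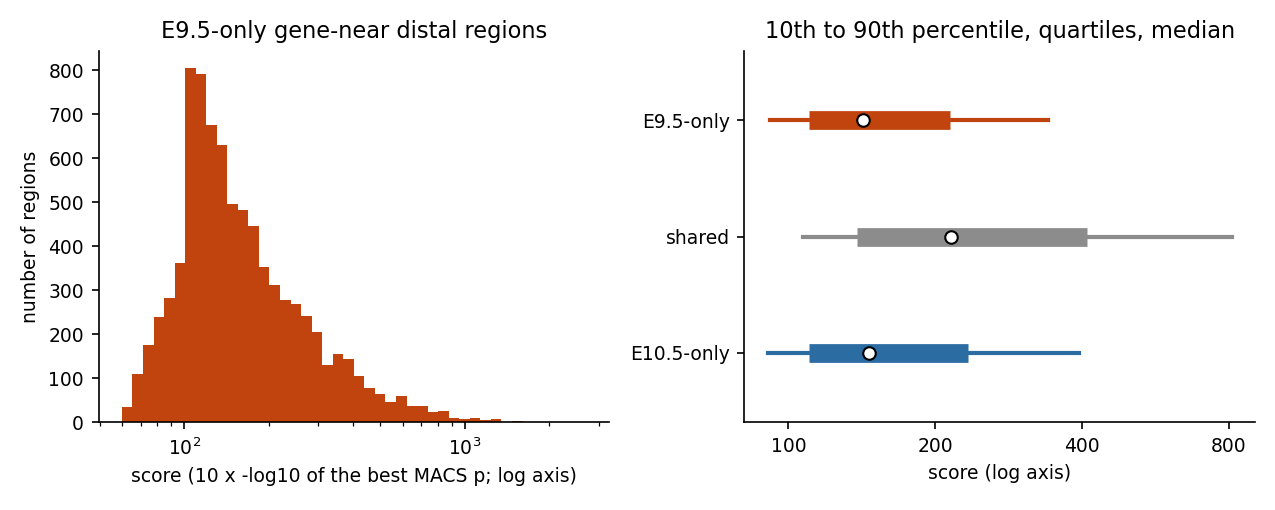
Left, number of E9.5-only gene-near distal regions by score (log axis). Right, scores by class (log axis), with thin lines from the 10th to the 90th percentile, thick lines between the quartiles and circles at the medians of 142, 215 and 146. The histogram steps up at a score of 100, which corresponds to the stringent p-value of 1e-10 used by the authors, and falls off towards high scores.

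In width the E9.5-only regions lay between the other classes, and in distance they were close to the shared ones. Their median width was 905 bp (901 to 910 bp), against 982 bp for shared (975 to 990 bp) and 852 bp for E10.5-only regions (848 to 857 bp). On 19 of 19 autosomes they were narrower than shared regions, with a difference of -78.1 ± 26.5 bp (SD, n = 19 autosomes), and wider than E10.5-only regions, with one of 53.2 ± 20.7 bp. The median distance of the centre from the nearest start was 19.4 kb (18.7 to 19.9 kb), and for the shared regions it was 19.5 kb (19.1 to 20 kb). E10.5-only regions lay farther out, at 28.6 kb (27.8 to 29.4 kb), and were farther on 19 of 19 autosomes. The E9.5-only percentage hardly varied with distance, from 40.7% (38.8 to 42.6%) at 2.5 to 5 kb to 38.9% (37.4 to 40.4%) at 50 to 100 kb. The E10.5-only percentage rose over the same bins from 29.6% (27.7 to 31.5%) to 52.2% (50.8 to 53.6%). The median GC content within 150 bp of the centre was 51.8% in E9.5-only regions (51.5 to 51.8%), 51.5% in shared regions (51.2 to 51.5%) and 45.2% in E10.5-only regions (44.9 to 45.2%). A CpG ratio, observed over expected, above 0.6 was found in 5.81% of the E9.5-only regions (5.32 to 6.33%), 12.8% of the shared regions (12.3 to 13.4%) and 2.95% of the E10.5-only regions (2.63 to 3.31%). The E9.5-only regions were thus close to shared regions in GC content and had fewer CpG-rich centres.

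The limits of the rule were approached closely by few regions. The median gap to the nearest E10.5 region was 10.6 kb (10.1 to 11 kb), and 4177 E9.5-only regions (51.3%) had a gap of 10 kb or more. A gap under 1000 bp was seen for 615 (7.55%, 6.99 to 8.14%) and one under 100 bp for 45. The closest, 38.8 kb from the start of Zfp438 with a score of 103, abutted an E10.5 region with a gap of 0 bp. On the other side of that limit, a shared region 30.5 kb from Slc37a3 with a score of 456 overlapped its partner by 1 bp. By distance, the innermost E9.5-only region lay 2503 bp from Smad7 and the outermost 99988 bp from 4930544G11Rik. Just outside were regions 2497 bp from Tinagl1 and 100026 bp from E2f8. The E9.5-only percentage ranged from 33.1% on chromosome 16 to 46.9% on chromosome 11.

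The question of position was whether E9.5-only regions lie within genes or between them. Of the 8148, 3925 had their centre in an intron of a protein-coding gene (48.2%, 47.1 to 49.3%), 3825 were intergenic (46.9%, 45.9 to 48.0%) and 398 were in an exon (4.88%, 4.44 to 5.37%). Shared regions were intronic in 39.5% of cases (38.7 to 40.4%) and intergenic in 55.9% (55 to 56.7%). The intronic share of the E9.5-only regions was 8.64 percentage points higher (7.26 to 10). Averaged over autosomes the difference was 8.81 ± 4.39 points (SD, n = 19 autosomes), and E9.5-only regions were the more intronic on 19 of 19. Among E10.5-only regions 50.3% were intronic (49.3 to 51.4%), and the difference of -2.42 ± 5.34 points over autosomes had no common sign, with E9.5-only regions higher on 6 and lower on 13. The exonic share was 4.61% in shared (4.26 to 5.0%) and 2.24% in E10.5-only regions (1.96 to 2.56%). Within exons, 221 E9.5-only regions were in coding sequence, 174 in 3′ untranslated and 3 in 5′ untranslated sequence. In intronic share the E9.5-only regions therefore lay closer to E10.5-only than to shared regions.

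The higher intronic share was seen at each distance. At 2.5 to 5 kb it was 53.7% in E9.5-only (50.7 to 56.6%) and 45.9% in shared regions (43.5 to 48.4%). At 10 to 25 kb the values were 51.4% (49.4 to 53.5%) and 40.1% (38.5 to 41.7%). At 50 to 100 kb they were 40.1% (37.7 to 42.6%) and 34.8% (32.9 to 36.7%). The intronic share did not follow the score. It was 47.8, 48.6, 47.4 and 48.9% from the lowest to the highest score quartile of the E9.5-only regions, with overlapping intervals. With both lists restricted to their higher-scoring 50% before overlap was computed, 44.8% of the regions meeting the rule were intronic. This was 11.5 points above the shared regions of that setting. The set then also holds regions that overlap a lower-scoring E10.5 region.

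Most intronic E9.5-only regions, 3347 of 3925 (85.3%, 84.1 to 86.3%), lay inside the gene whose start was nearest, and the other 578 lay in an intron of another gene. Numbered along 1 transcript per gene, the first intron held 32.6% of those that could be placed (31.1 to 34.2%, 1188 of 3639), against 27.5% of shared (26.2 to 28.8%) and 26.3% of E10.5-only regions (25 to 27.6%). The third and later introns held 49.7% (48.1 to 51.3%). Of the intergenic E9.5-only regions, 61.1% were upstream of the nearest start (59.5 to 62.6%), much as among shared regions, with 60.1% (59.0 to 61.3%). The nearest genes mostly had an open promoter, meaning a region within 2.5 kb of a start, at both stages (78.8% of E9.5-only regions, 77.9 to 79.7%). A promoter region in the E9.5 list alone was more frequent than for shared regions, at 6.38% (5.87 to 6.93%) against 4.09% (3.76 to 4.46%).

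**Figure D2:**
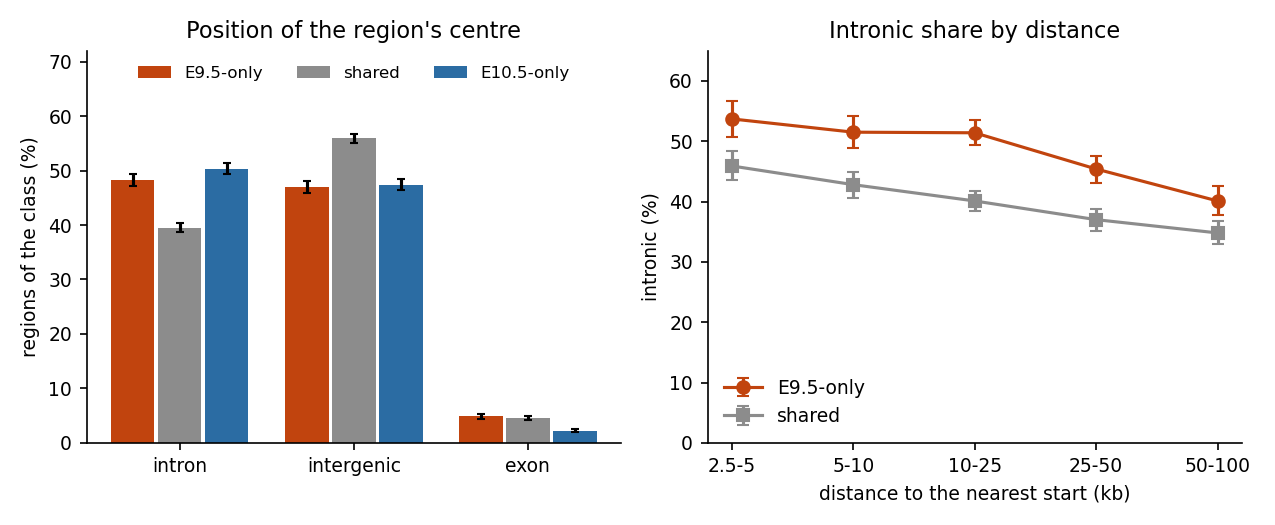
Left, percentage of regions with their centre in an intron, between genes or in an exon, for E9.5-only, shared and E10.5-only gene-near distal regions. Right, intronic percentage by distance to the nearest start. Bars and points carry 95% Wilson intervals, and the E9.5-only values lie above the shared ones in all 5 distance bins, from 53.7% against 45.9% to 40.1% against 34.8%.

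The E9.5-only regions were spread over many genes. They were nearest to 4747 of 21418 autosomal protein-coding genes (22.2%), of which 2953 had 1 region and 990 had 2. At least 5 regions were counted for 199 genes, which together accounted for 1221 regions. These regions were intronic in 60.9% of cases (58.1 to 63.6%), against 42.6% (40.8 to 44.4%) where a gene had a single one. The same contrast was not examined for shared or E10.5-only regions, so it is not shown to be particular to E9.5-only ones. Most of the E9.5-only regions were intronic in 121 of the 199 genes, and most were intergenic in 68. No E10.5-only region was nearest to 73 of the 199 genes. This was a smaller share than among all 4747 genes, of which only 1950 had both kinds of region. More E10.5-only than E9.5-only regions were found at 17 of the 199, and 172 had a promoter region at both stages. Since genes were ranked by the number of regions itself, these counts describe the ranking and are not a test. The number of such genes fell from 199 to 23 when both lists were restricted to their higher-scoring 50%, and to 7 when the E9.5 list alone was. The former setting also counts regions that overlap a lower-scoring E10.5 region.

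**Figure D3:**
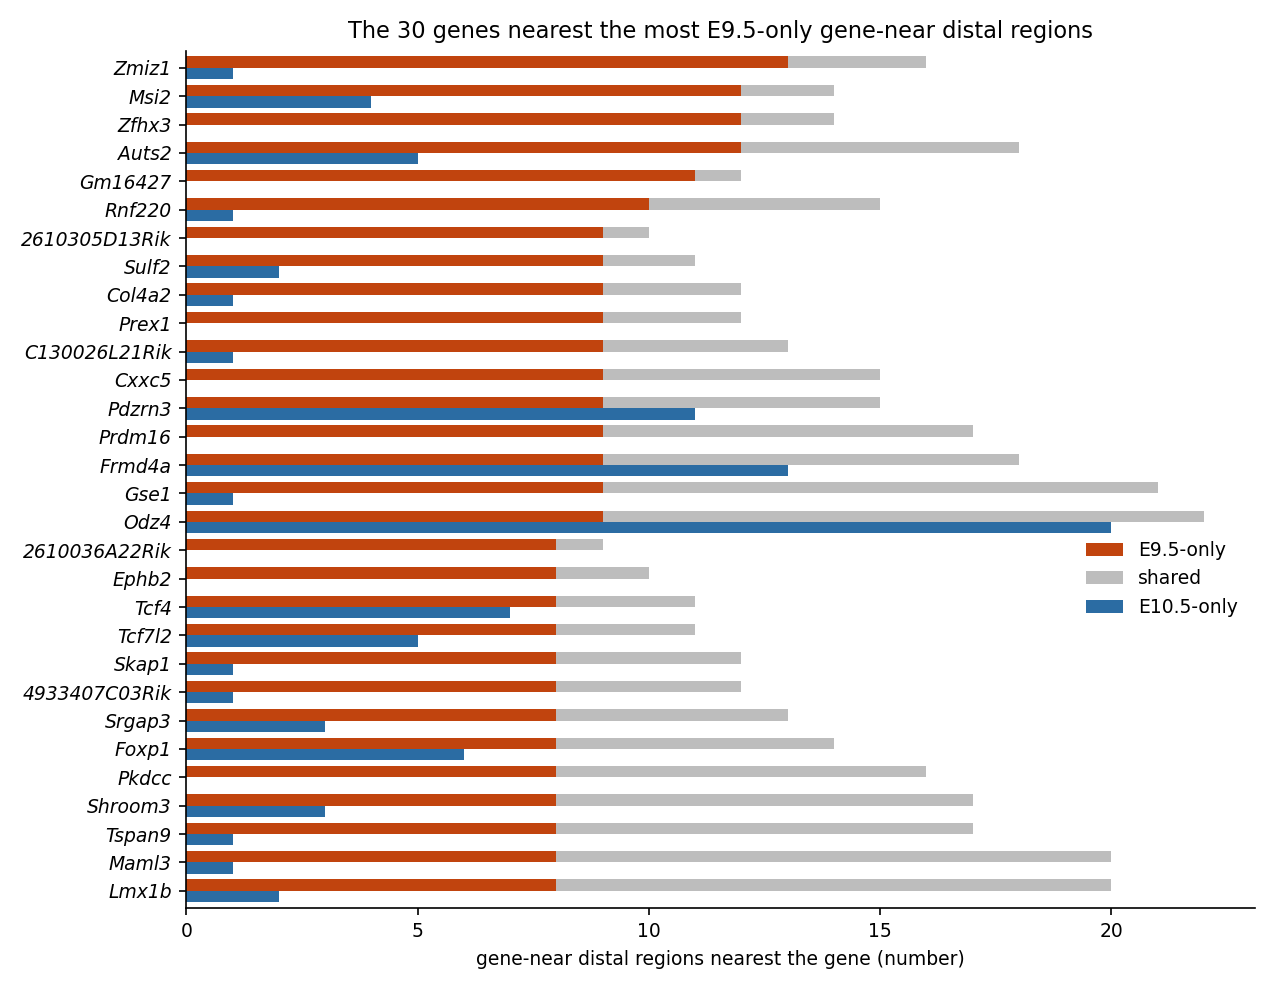
Number of gene-near distal regions for which each of the 30 genes is the nearest, in order of the E9.5-only count. Upper bars show E9.5-only and shared regions of the E9.5 list and lower bars E10.5-only regions, so that Zmiz1 has 13 E9.5-only, 3 shared and 1 E10.5-only region and Odz4 has 9, 13 and 20.

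The gene with the highest count was Zmiz1. This gene, which encodes a transcriptional coactivator related to PIAS proteins, was nearest to 13 E9.5-only regions among 16 distal regions of the E9.5 list, and to 1 E10.5-only region. In Zmiz1, 10 of the 13 were in introns of the gene and 3 were upstream between 37.6 and 69.7 kb. Their scores ran from 90.3 to 234, so that the gene with the most E9.5-only regions had no strong one. Zfhx3, a large zinc finger and homeobox transcription factor, had 12 of 14 and no E10.5-only region. The Zfhx3 regions were divided evenly, with 6 in its first intron between 8.44 and 48.1 kb downstream and 6 upstream between 4.57 and 93.1 kb. Their scores were also low, from 84.3 to 244. Prdm16, another zinc finger transcription factor, which was lower in the ranking, had 9 of 17, of which 8 were intronic, and again no E10.5-only region.

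Msi2, which encodes the RNA-binding protein Musashi-2, had 12 of 14 regions, 11 of them in introns. The 3 strongest Msi2 regions scored 457, 506 and 533 and lay 4.78, 7.08 and 15 kb downstream of a start. Auts2, whose product is a nuclear protein that associates with Polycomb complexes, had 12 of 18, all intronic, spread over 998 kb. An Auts2 region in intron 6 of 20 had the highest score among them, 832. Rnf220, a ubiquitin ligase, had 10 of 15, all intronic, of which 8 were in intron 2 of 14. The highest Rnf220 score was 638. E10.5-only regions numbered 4 at Msi2, 5 at Auts2 and 1 at Rnf220.

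Other genes among the 30 encode enzymes, matrix chains, receptors and intracellular signalling proteins. Sulf2, a secreted enzyme that removes sulfate groups from heparan sulfate, had 9 of 11 regions, and 7 of them were intergenic, between 13.4 and 96.0 kb upstream. Col4a2, a collagen chain of basement membranes, had 9 of 12 with scores from 86.1 to 355. The Col4a2 regions included 2 in the first intron of Col4a1, the divergently transcribed partner. Ephb2, a receptor for ephrin-B ligands, had 8 of 10 and no E10.5-only region. Prex1, an exchange factor for Rac GTPases, had 9 of 12, of which 5 were in its first intron, with none E10.5-only either. Odz4, the teneurin now called Tenm4, was different in that its 9 E9.5-only regions (40.9% of 22) stood beside 20 E10.5-only ones. Frmd4a and Pdzrn3 likewise had 9 E9.5-only regions each and more E10.5-only ones, 13 and 11.

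Genes with known roles in the limb bud and in signalling were also among the 30. Pkdcc, which encodes a secreted kinase needed for limb growth, had 8 of 16 regions, of which 7 were intergenic and none intronic, with scores from 105 to 356. Lmx1b, the LIM homeobox factor of dorsal limb mesenchyme, had 8 of 20, with 5 in introns. Tcf7l2, a nuclear effector of Wnt signalling, had 8 of 11 with scores from 73.9 to 431, beside 5 E10.5-only regions. Tcf4, a bHLH factor, had 8 of 11 beside 7 E10.5-only regions. Maml3, a coactivator of Notch receptors, had 8 of 20, and Shroom3, which organises apical actin, had 8 of 17, all intronic. Foxp1, a forkhead factor, had 8 of 14 with no score above 189. E10.5-only regions numbered 0 at Pkdcc, 2 at Lmx1b, 1 at Maml3, 3 at Shroom3 and 6 at Foxp1.

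Several of these counts depended on weak peaks or on the definition of the nearest gene. With the E9.5 list restricted to its higher-scoring 50% and compared with the whole E10.5 list, 0 regions were left for Zmiz1, Zfhx3, Sulf2 and Foxp1, and 6 for Auts2, 5 for Rnf220 and 3 for Msi2. When starts of non-coding genes were also admitted as the nearest, Zmiz1 had 5 and Sulf2 had 3. At 3 of the 30 genes the regions consisted largely of 31-base words that occur more than once in the genome. The median share of such words was 95.5% for the 11 regions of Gm16427, 100% for the 9 of 2610305D13Rik, now Zfp979, and 99.1% for the 8 of 2610036A22Rik. Over all E9.5-only regions, 65 (0.798%, 0.626 to 1.02%) had over 50% of repeated words, a share close to the 0.786% (0.645 to 0.958%) of shared regions. Leaving these out gave 194 genes with at least 5 regions in place of 199.

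**Figure D4:**
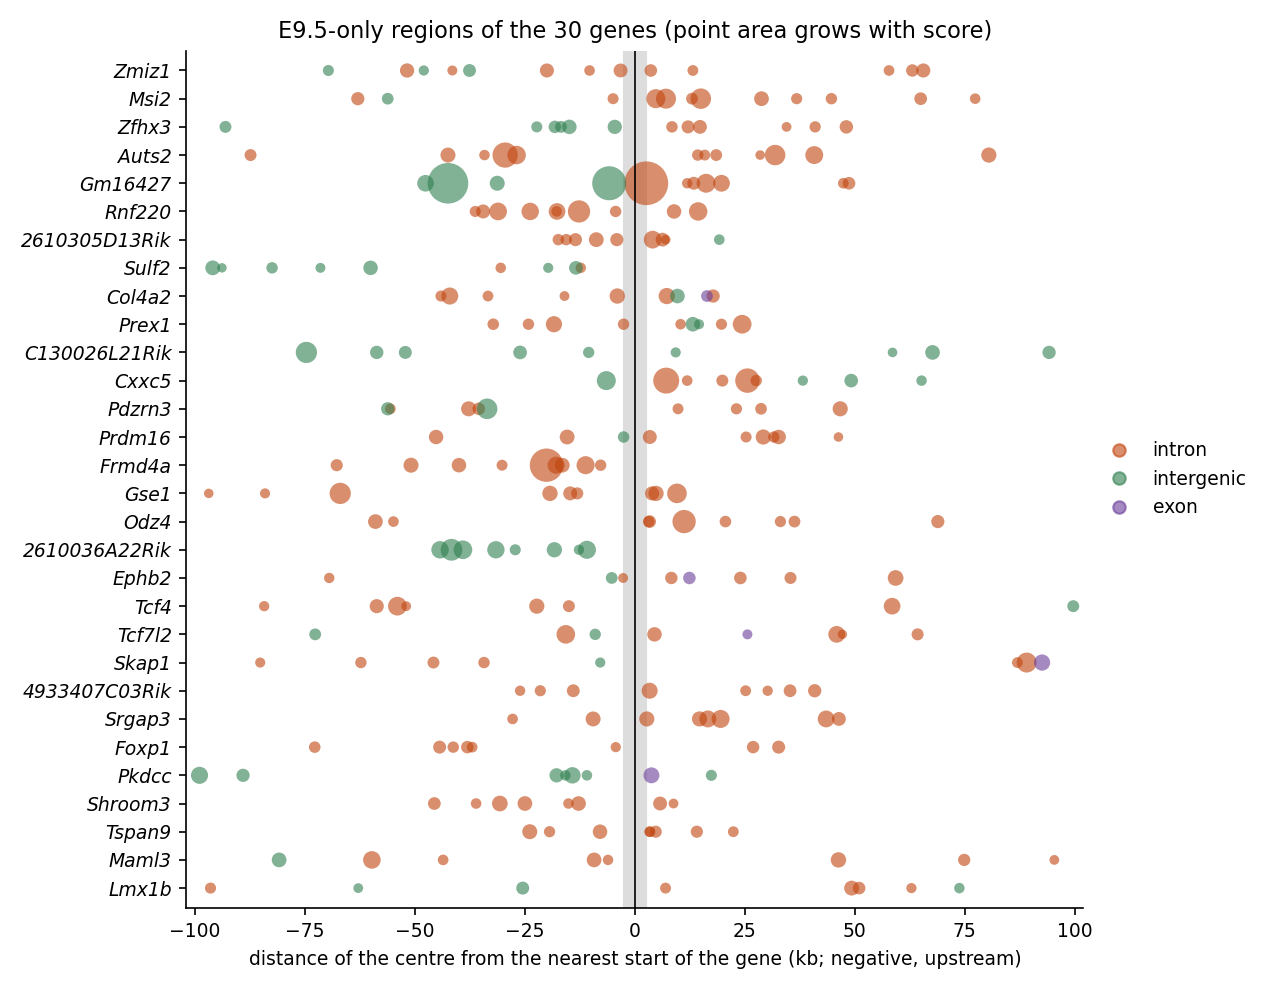
Each point is 1 E9.5-only region of the 30 genes, placed by the distance of its centre from the nearest start of that gene in kb (negative, upstream) and coloured by intron, intergenic or exon position, with an area that grows with the score. An intronic point at a negative distance lies upstream of an internal start, the grey band marks the excluded 2.5 kb, and the largest points, up to a score of 2596, belong to the repeat-rich Gm16427.

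The strongest single regions were then examined, and of their genes Gm16427 and Frmd4a were also among the 30. Of the 10 highest scores, 3 belonged to Gm16427 (2596, 2231 and 1553) and 1 to C87414 (1456), in regions with 89.7 to 99.0% of repeated words. The strongest region with no repeated word, scoring 1577, was intergenic, 77.4 kb downstream of the start of Lekr1, and was only 0.795 kb from an E10.5 region. In intron 2 of 22 of Frmd4a, which encodes a FERM-domain scaffold protein, a region scored 1491 and was 15 kb from the next E10.5 region. A region scoring 1446 lay in intron 5 of 13 of Igdcc3, an immunoglobulin-domain gene, although the start of Parp16 was nearest. The first introns of Tmem132e (1311) and Lfng (1276) followed, together with an intergenic region 49.4 kb upstream of Ankrd33 (1300). Lfng encodes a glycosyltransferase that modifies Notch receptors, and its region had an E10.5 region within 0.233 kb. The next scores belonged to Nuak1 (1267, intergenic), Sema3f (1266, intron 2 of 18), Glra1 (1258) and Nrg1 (1247). Strong E9.5-only regions were therefore found both far from any E10.5 region and just beside one.

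E9.5-only regions also followed each other along the chromosome. Runs of at least 2 neighbours with no other E9.5 region between them numbered 1594 and held 4004 of the 8148, and 74 runs held at least 5. The next region of the E9.5 list was itself E9.5-only and gene-near distal for 29.6% of the E9.5-only regions (28.6 to 30.6%), for 21.4% of shared regions (20.6 to 22.1%) and for 19.5% of all autosomal E9.5 regions (19.1 to 19.9%). The longest, of 10, was in the repeat-rich intergenic DNA around 2610036A22Rik and Gm13247. Next came 9 regions in 54.4 kb at Mef2d, a MADS-box factor of muscle and nerve, and Rhbg, with a median repeat share of 0 and a median score of 153. The run of 7 at Flrt1 and Otub1 spanned 77.0 kb with a median score of 339, all intronic. At Tcf4, 7 regions followed one another in introns over 103 kb, and at Sh3pxd2a 6 did so over 75.6 kb.

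Lists of genes for tissues and pathways were used to describe which genes lay nearest. They were chosen with earlier results of these data known, and some hold genes of the ranking above. Their shares are therefore a description and not a test. In all, 388 of 393 entries on 20 lists were matched, and each percentage below is the share of the gene-near distal regions of those genes, to be read against 39.8% for E9.5-only and 42.8% for E10.5-only regions. Genes of limb mesenchyme stood close to the first value, with 51 of 136 E9.5-only (37.5%, 29.8 to 45.9%). Their E10.5-only share was lower than the second, with 43 of 126 (34.1%, 26.4 to 42.8%). Pkdcc and Lmx1b led this list, followed by Irx3, an Iroquois homeobox factor, with 7 of 9 regions scoring from 172 to 604. Of the 26 limb mesenchyme genes, 12 had more E9.5-only regions, 9 had more E10.5-only regions and 5 had equal numbers. Among the 9, Fgf10 had 1 E9.5-only and 9 E10.5-only regions, and Prrx1 had 0 and 5. Surface ectoderm and ridge genes had 14 of 40 (35%, 22.1 to 50.5%) and 13 of 40 (32.5%, 20.1 to 48.0%). The E9.5-only share of neither list departed from 39.8% beyond its interval. The E10.5-only shares of both lists were below 42.8%, with upper limits of 42.8% for limb mesenchyme and 48.0% for ectoderm and ridge.

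For neural, endoderm, somite and intermediate mesoderm genes the E9.5-only and E10.5-only shares lay further apart than for limb mesenchyme. Neural tube and crest genes had 32 of 64 E9.5-only (50%, 38.1 to 61.9%) but 4 of 36 E10.5-only (11.1%, 4.41 to 25.3%). Of the 17 genes on that list, 13 had more E9.5-only regions, none had fewer and 4 had equal numbers. Over all 21418 autosomal protein-coding genes, 3318 had more E9.5-only than E10.5-only regions and 3661 had fewer. A promoter region was listed for 15 of the 17 at E9.5 and for 12 at E10.5. These numbers were 13 and 9 for surface ectoderm and ridge genes, 38 and 28 for Hox genes and 28 and 28 for BMP genes. The drop was thus not particular to the neural list. Sox2, a factor of neural progenitors, had 7 of 11 regions with scores of 89.8 to 296, all intergenic, and no E10.5-only region. Foxd3, a factor of neural crest, had 4 of 5. The regions of both genes were intergenic and none lay in an intron. Gut endoderm genes had 16 of 31 (51.6%, 34.8 to 68.0%) and 4 of 20 (20%, 8.07 to 41.6%). Within that list Sox9, which is also a limb cartilage gene, held 7 of the 16. Somite and muscle genes had 35 of 78 (44.9%, 34.3 to 55.9%) and 17 of 62 (27.4%, 17.9 to 39.6%), led by the paired box factors Pax7 (7 of 9) and Pax3 (6 of 12) and by Uncx (7 of 11). The genes of the somite list were divided, with more E9.5-only regions at 8, more E10.5-only regions at 6 and equal numbers at 3. For intermediate mesoderm the values were 20 of 33 (60.6%, 43.7 to 75.3%) and 8 of 21 (38.1%, 20.8 to 59.1%), with Pax2 at 7 of 10. More E9.5-only than E10.5-only regions were found at 6 intermediate mesoderm and 5 endoderm genes, and fewer at 2 and 1. In each of these 4 lists the E9.5-only share was the larger one, with overlapping intervals in the case of somite, intermediate mesoderm and endoderm genes. For lateral plate and body wall genes the shares were nearly equal, with 8 of 18 (44.4%, 24.6 to 66.3%) and 7 of 16 (43.8%, 23.1 to 66.8%). Vessel genes had 14 of 40 (35%, 22.1 to 50.5%) and 21 of 48 (43.8%, 30.7 to 57.7%), and blood genes 5 of 16 and 7 of 19. Of the E9.5-only shares in these trunk, vessel and blood lists, that of intermediate mesoderm alone had an interval that excluded 39.8%. The E10.5-only shares of the neural, endoderm and somite lists had intervals below 42.8%. The part of the trunk kept with the E9.5 buds in these differences was not tested.

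Hox genes and the Notch pathway were spread in a similar way. Hox genes had 21 of 42 E9.5-only (50%, 35.5 to 64.5%) and 3 of 26 E10.5-only regions (11.5%, 4.0 to 29%). Hoxc4 had 5 of 11, and Hoxb1 had 2 of 3 with scores of 448 and 609. Among Notch genes the numbers were 31 of 64 (48.4%, 36.6 to 60.4%) and 8 of 43 (18.6%, 9.74 to 32.6%), with more E9.5-only regions at 10 of 18 genes and fewer at none. Over all autosomal protein-coding genes, E9.5-only regions were more numerous at 3318 and fewer at 3661. The receptor Notch1 had 7 of 8 with scores up to 727, the ligand Jag1 had 6 of 10, and Lfng had 3 of 4. In both lists the interval of the E9.5-only share included 39.8%, while that of the E10.5-only share lay below 42.8%.

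The remaining pathway lists are given in the same way, and in each of them the intervals of the E9.5-only and E10.5-only shares overlapped. Extracellular matrix genes had 51 of 93 E9.5-only (54.8%, 44.7 to 64.6%) and 33 of 74 E10.5-only (44.6%, 33.8 to 55.9%), led by Col4a2 and by Col18a1, another basement membrane collagen, with 7 of 10. Wnt genes had 56 of 113 (49.6%, 40.5 to 58.6%) and 51 of 109 (46.8%, 37.7 to 56.1%). In the Wnt list the feedback inhibitor Axin2 had 7 of 12, the receptor Fzd7 had 6 of 7, and Lgr4, a receptor for R-spondins, had 6 of 9 with scores up to 1018. Axon guidance genes had 93 of 192 (48.4%, 41.5 to 55.5%) and 100 of 199 (50.3%, 43.4 to 57.1%), and the 5 distal regions of Epha4, an ephrin receptor, were all E9.5-only with scores up to 1069. BMP genes had 34 of 96 (35.4%, 26.6 to 45.4%) and 36 of 101 (35.6%, 27.0 to 45.4%). The BMP list as a whole was balanced between the stages, and single genes were not. The inhibitory Smad6 had 6 of 10 and the BMP target Id2 had 4 of 5, whereas at Bmpr1b, a BMP receptor, 3 E9.5-only regions stood beside 13 E10.5-only ones. SHH genes had 25 of 67 (37.3%, 26.7 to 49.3%) and 30 of 75 (40%, 29.7 to 51.3%), with Gli2 at 7 of 18. FGF genes had 20 of 53 (37.7%, 25.9 to 51.2%) and 31 of 63 (49.2%, 37.3 to 61.2%), with 4 of 7 at the receptor Fgfr2. Retinoic acid genes had 22 of 53 (41.5%, 29.3 to 54.9%) and 18 of 49 (36.7%, 24.7 to 50.7%), with 5 of 7 at the receptor Rxra. In the SHH, FGF and retinoic acid lists the intervals of the shares overlapped widely. Cytoskeletal genes had 15 of 32 (46.9%, 30.9 to 63.6%) and 13 of 30 (43.3%, 27.4 to 60.8%). Cholesterol synthesis genes had 7 of 13 (53.8%, 29.1 to 76.8%), of which 3 were nearest Mvk, mevalonate kinase, and 2 of 8 E10.5-only (25%, 7.15 to 59.1%). The cholesterol shares lay about as far apart as those of the Notch list, on far fewer regions. Apart from extracellular matrix, Wnt and axon guidance genes, whose E9.5-only shares had intervals above 39.8%, these E9.5-only shares did not depart from the background beyond counting error. Those 3 lists hold Col4a2, Tcf7l2 and Ephb2, which had already been ranked by their E9.5-only counts, so their higher shares are not a test. For axon guidance genes the E10.5-only share also had an interval above its background of 42.8%.

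Sequence words were compared next, since the rule made no use of them. Each of 24 words was searched on both strands within 150 bp of the centre, and a match is a description, not a bound site. In percentage points, the largest difference of E9.5-only from shared regions was that of the nuclear receptor word AGGTCA. It occurred in 2470 of the 8148 E9.5-only regions (30.3%, 29.3 to 31.3%), in 20.9% of shared regions (20.2 to 21.6%), in 19.8% of E10.5-only regions (19.0 to 20.7%) and in 20.6% of all autosomal E9.5 regions. The difference from shared regions was 9.49 ± 2.55 percentage points over autosomes (SD, n = 19) and that from E10.5-only regions 10.7 ± 2.70 points, each with E9.5-only regions higher on 19 of 19. At least 2 matches were present in 6.28% of the E9.5-only regions (5.78 to 6.83%), against 2.66% of shared (2.39 to 2.96%) and 2.10% of E10.5-only regions (1.83 to 2.41%).

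The nuclear receptor word was examined further after this difference had been seen. Its density peaked at the centre of the E9.5-only regions, with 69.6 and 71.7 matches per 1000 regions in the 50 bp on either side, and was 33.9 and 36.7 in the outermost bins 450 to 500 bp away. Shared regions had 40 and 41.8 at the centre and 33.0 and 31.8 in the outermost bins. In regions without any repeated word the shares with a match were 30.9% (29.6 to 32.1%) for E9.5-only and 20.6% (19.7 to 21.6%) for shared regions. Intronic E9.5-only regions held it in 31.3% of cases (29.8 to 32.7%) and intergenic ones in 30.1% (28.7 to 31.6%). From the lowest to the highest score quartile the shares were 28.3, 31.6, 30.4 and 31%, and at scores of at least 500 the share was 31.5% (26.6 to 36.9%), against 19.2% (17.7 to 20.9%) for shared regions of that score. At a GC content of 45 to 50% the shares were 33.4% (31.3 to 35.5%) in E9.5-only, 23.2% (21.7 to 24.7%) in shared and 21.1% (19.6 to 22.6%) in E10.5-only regions. The share of E9.5-only regions was the higher one in each of these divisions for which shared regions are given.

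Pairs of this word in the same direction were rare. With 1 base between the copies, as in the window near Sulf2, they were found in 101 E9.5-only regions (1.24%, 1.02 to 1.5%), 0.421% of shared (0.322 to 0.552%) and 0.418% of E10.5-only regions (0.306 to 0.571%). Among spacings of 0 to 8 bases, 1 base was the most frequent in E9.5-only regions, followed by 5 bases (0.675%, 0.519 to 0.878%) and 2 bases (0.626%, 0.476 to 0.822%). The order of these 3 spacings was the same in shared regions, with 52, 37 and 35 of the 12338, and in E10.5-only regions, with 39, 28 and 27 of the 9321.

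**Figure D5:**
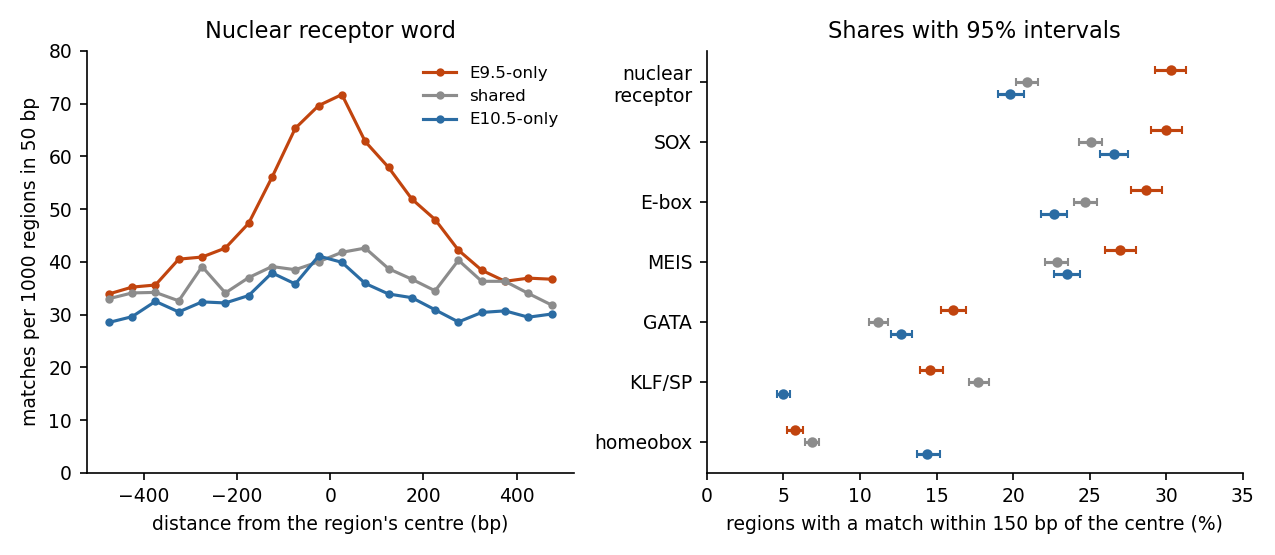
Left, AGGTCA matches per 1000 regions in 50 bp steps around the centre, with a peak near 70 in E9.5-only and near 40 in shared and E10.5-only regions. Right, percentage of regions with a match to 7 words within 150 bp of the centre, with 95% Wilson intervals, in the same colours.

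Other words were also more frequent in E9.5-only than in shared regions, by fewer percentage points. As a ratio of shares, the GATA word AGATAA, at 1.44, was close to AGGTCA, at 1.45. Their profiles differed. Per 1000 E9.5-only regions, AGATAA had 30.6 and 30.3 matches beside the centre and 28.5 and 28.8 in the outermost bins. In shared regions it fell from 27.2 and 26.7 in the outermost bins to 19.9 and 17.8 at the centre. In E10.5-only regions it fell from 33.2 and 37.9 to 21.1 and 18.8. AGATAA was present in 16.1% (15.3 to 16.9%) of E9.5-only, 11.2% of shared (10.6 to 11.8%), 12.7% of E10.5-only (12 to 13.4%) and 4372 of the 41797 autosomal E9.5 regions, higher than in shared regions on 19 of 19 autosomes. ACAAAG was present in 30% (29 to 31%), 25.1% (24.3 to 25.8%), 26.6% (25.7 to 27.5%) and 22.5%. The latter became more frequent with the score of E9.5-only regions, from 26.7% (24.8 to 28.6%) in the lowest to 34.2% (32.2 to 36.3%) in the highest quartile. In the same score ranges of the shared regions it was 24.8% (22.7 to 27.1%) and 24.2% (23.1 to 25.3%). The E-box CAGCTG had 28.7% (27.7 to 29.7%) in E9.5-only, 24.7% in shared and 23.6% in all E9.5 regions, and the MEIS word TGACAG had 27.0% (26.0 to 28.0%), 22.9% and 21.6%.

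In comparison with shared regions, 3 words were less frequent. GGGCGG, the word of KLF and SP factors, was present in 14.6% (13.9 to 15.4%) of E9.5-only, 17.7% of shared, 4.98% of E10.5-only and 30.2% of all E9.5 regions, which include the promoters. The GGGCGG share followed the GC content, and at 45 to 55% GC it differed little from that of E10.5-only regions. At 45 to 50% GC the shares were 5.13% (4.24 to 6.19%) in E9.5-only and 5.61% (4.83 to 6.52%) in E10.5-only regions, at 50 to 55% GC they were 11% (9.92 to 12.3%) and 9.40% (7.99 to 11%), and above 55% GC 31.6% (29.7 to 33.4%) and 20.6% (16.9 to 24.9%). GGCGCC, a GC-rich SMAD word, was present in 4.98% (4.53 to 5.48%) of E9.5-only, 7.72% of shared (7.27 to 8.21%) and 2.47% of E10.5-only regions (2.17 to 2.80%), and was rarer than in shared regions on 18 of 19 autosomes. The homeobox word TAATTA was present in 5.74% (5.26 to 6.27%), 6.84%, 14.4% and 5.15%, and was rarer than in E10.5-only regions on 19 of 19 autosomes. Within the class of 45 to 50% GC the TAATTA shares were 7.59% (6.51 to 8.84%) in E9.5-only and 11.9% (10.7 to 13.1%) in E10.5-only regions. The SMAD palindrome GTCTAGAC was found in 29 E9.5-only regions (0.356%, 0.248 to 0.511%), a share within the interval of that in shared regions, 0.324%. In total 8 of the 24 words were more frequent in E9.5-only than in shared regions with intervals that did not overlap, 3 were less frequent as described above, and 13 had overlapping intervals.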

How the data were processed

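Per the sources used here, the authors aligned ATAC-seq reads to mm9 with Bowtie 1.1.0, allowing 2 mismatches and keeping uniquely placed reads, and called peaks with MACS 1.4 without a control. Replicates were combined with MSPC (stringent p 1e-10, weak p 1e-06), so that each stage has 1 deposited list. The score in a deposited list was computed by the authors by taking the lowest MACS p-value among the replicates and multiplying its negative log10 by 10, without scaling for depth. Read totals and the value of single replicates were not analysed here, so depth is unknown.

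Overlap, distance and position were computed in Python 3.11.15 (numpy 2.4.6, scipy 1.17.1, pysam 0.24.0) from GENCODE vM1 on the NCBIM37 assembly, whose chromosome lengths the mm9 coordinates fit. The annotation held 22380 protein-coding genes with 70064 starts. Exon took precedence over intron, and intron over intergenic. A further 816 regions of the E9.5 list, on X, Y and M, were left out. Sequences come from that assembly, and repeated words are 31-base words found more than once in it. Overlap, position and motif steps were tested on simulated data.

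The genes named are the 30 nearest the most E9.5-only regions (ties by share of E9.5 regions, summed score and symbol), the leading 3 genes of each list, and the 10 highest-scoring regions; 1 gene of a list is not reported here. Other genes and regions in the text were chosen after their values were seen. Members and lists were chosen with earlier results of these data known. No test was made, since the merged lists carry no values of single replicates. The alternatives are another overlap, score limit, set of starts, distance or window.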

Additional observations from a re-analysis of the deposited data

How the results depend on the processing

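The number of E9.5-only gene-near distal regions, their position, score, width, GC content, genes and words were recomputed under other settings. Counting each result under each setting gave 69 comparisons. Of these, 43 stayed within the 95% interval or within 1.5 times the value given above, and 26 moved. A reversal was defined only for the intronic difference from shared regions, and 0 occurred. The intronic excess over shared regions was above 0 in 8 of 8 settings. With the higher-scoring 50% of both lists, 2924 regions met the rule (45% E9.5-only, 44.8% intronic and 11.5 points above shared regions), with a median score of 363, a width of 1244 bp, a GC content of 53.2% and 23 genes with at least 5 regions. Of these 2924, 1412 overlapped no region of the whole E10.5 list. The rest overlapped a lower-scoring E10.5 region and are shared in the full lists. With the higher-scoring 50% of the E9.5 list against the whole E10.5 list the values were 1412 regions, 21.8%, 49.4% intronic, 13.9 points, a score of 361, 1236 bp and 7 genes. Fewer, stronger regions enter these settings by construction. A distance over 1 kb from every E10.5 region gave 36.8% E9.5-only, and a reciprocal overlap of 50% gave 42.8%, a score of 146 and 917 bp. Starts of all gene types gave 40.5% and 46.3% intronic, and an upper limit of 50 kb gave 50.1% intronic, a GC content of 52.2% and 104 genes. The GC content of whole regions was 49.4%, and counting genes of all types made 50.1% intronic. For these the cause was not tested. Windows of 75 bp on either side of the centre gave 8 more frequent and 3 less frequent words, as did windows of 150 bp, although TAATTA was replaced by the CTCF word AGGGGGC among the 3. Leaving out repeat-rich regions and the closer divisions of AGGTCA were added after seeing the data. Counts for the 30 genes stayed within 1.5 times in 170 of 240 cases and moved further in 70.

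No paired analysis was possible because the replicates of a stage were merged before deposit and their numbers carry no values. For the same reason, single replicates could not be left out. Stage and attached trunk cannot be told apart, nearest genes are not shown to be targets, and how near to its limit a region missing from a list came is unknown.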
